A study of Rattus norvegicus with 10 samples.

Results

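CISD1, BOLA3 and GLRX5 are nuclear genes for mitochondrial proteins that bind or hand over iron-sulfur clusters. They were chosen by the study's own comparison of the diets, as members of its list of 46 genes that differed between the same rats, and the values that chose them are therefore given as a description, without a test. They are 3 of the 32883 genes listed, with the identifiers ENSRNOG00000000610 for CISD1, ENSRNOG00000021866 for BOLA3 and ENSRNOG00000004206 for GLRX5. RNA of the choroid plexus, the secretory epithelium that forms CSF in the brain ventricles, was sequenced from 10 female Wistar rats aged 27 weeks, 5 fed a control diet (10% of the energy from fat) and 5 fed the HFD (60%) for 21 weeks. Each library came from 1 animal. The study used weight gain on a diet to model obesity, and it describes its HFD rats as overweight and not obese. It picked its experimental rats by their body weight, light ones on the control diet and heavy ones on the HFD. The diet and the choice by weight therefore cannot be told apart.

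Iron-sulfur clusters are cofactors of iron and sulfide that carry electrons in the respiratory chain and serve in enzymes of metabolism. They are built in the mitochondrial matrix on the scaffold ISCU, released with the help of the chaperone HSPA9, received by GLRX5, a monothiol glutaredoxin, and passed on to late factors such as ISCA1, ISCA2, NFU1 and BOLA3. BOLA3, a BolA-fold protein, acts late, in the supply of clusters to lipoate synthase and to respiratory complexes, and pairs with GLRX5. CISD1, also called mitoNEET, sits in the outer mitochondrial membrane with its cluster facing the cytosol, where it has been studied as a target of the insulin sensitizer pioglitazone and as a redox-sensitive cluster donor. Choroid plexus epithelium is rich in mitochondria, since the secretion of CSF rests on ATP-driven ion transport.

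The promoters of the 3 genes are shown because the genes stand in the same list, and the letters allow a comparison of what lies upstream of each start. RefSeq sequences of the GRCr8 assembly held an entry for all 3, each on the plus strand and each taken from 250 bases before the annotated start up to the start. The reads were aligned to another build, Rnor_6.0, whose coordinates are not given here. The windows are chr20:17254212-17254461 for CISD1, chr4:117410794-117411043 for BOLA3 and chr6:129752944-129753193 for GLRX5. Capitals mark copies of the searched motifs on either strand.
CISD1: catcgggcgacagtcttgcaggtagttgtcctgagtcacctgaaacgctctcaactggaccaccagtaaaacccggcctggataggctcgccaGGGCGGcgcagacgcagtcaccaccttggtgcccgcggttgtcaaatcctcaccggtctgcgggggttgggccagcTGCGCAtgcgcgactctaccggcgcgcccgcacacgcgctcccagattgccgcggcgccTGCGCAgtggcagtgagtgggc
BOLA3: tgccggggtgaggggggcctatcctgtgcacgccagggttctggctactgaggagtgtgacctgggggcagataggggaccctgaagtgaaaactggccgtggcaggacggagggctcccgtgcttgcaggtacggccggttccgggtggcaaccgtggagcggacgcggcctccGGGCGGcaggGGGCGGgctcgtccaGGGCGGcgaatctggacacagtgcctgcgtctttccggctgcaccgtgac
GLRX5: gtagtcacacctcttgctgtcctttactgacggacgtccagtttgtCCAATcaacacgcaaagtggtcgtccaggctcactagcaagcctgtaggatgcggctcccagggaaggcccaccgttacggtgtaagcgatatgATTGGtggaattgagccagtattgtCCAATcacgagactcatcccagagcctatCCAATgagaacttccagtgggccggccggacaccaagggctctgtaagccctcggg

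Each promoter held a different one of the searched motifs in more than 1 copy. The CISD1 window held 2 copies of TGCGCA, the core of the site bound by NRF1, a regulator of nuclear genes for mitochondrial proteins, at 81 to 76 and 22 to 17 bases before the start, and 1 GC box (GGGCGG). Of 33469 rat promoters of the same length, 6.14% held TGCGCA and 0.792% held it at least 2 times. The BOLA3 window held 3 GC boxes between 75 and 45 bases before the start, and 7.41% of all promoters held at least 3. The GLRX5 window held 4 copies of CCAAT, the letters bound by NF-Y, 1 of them on the minus strand (ATTGG), and 0.565% of all promoters held at least 4. The letters AAGGTCA (estrogen-related receptors), CCGGAAG (ETS factors) and TGACGTCA (CRE) matched none of the 3 windows, against 3.99%, 7.27% and 1.59% of all promoters. No motif overlapped another. The GC content was 66.4% for CISD1, 69.2% for BOLA3 and 55.2% for GLRX5, beside a median of 51.2% over all promoters, and the number of CpG was 25, 21 and 12 beside a median of 5. These matches are a description of letters, and binding was not measured.

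The deposited values are TPM, a length-corrected share of each gene in all transcripts of the rat. Control rat 1 stood apart from the other 9. Its TPM had to be divided by 0.749 to bring the median gene to the level of the other rats, whose factors lay between 0.945 and 1.13, and 1845 of its genes then still differed more than 2-fold from the median of its peers, a distance that 172 to 235 genes reached in any other rat. Values divided by these factors are called rescaled TPM and are used where nothing else is said. The files give no read number of any library, since TPM and FPKM keep none, and the study's methods name only a nominal sequencing output, and 16078 to 16703 genes were detected per rat. All 10 epithelial markers searched (among them TTR, KL, FOLR1 and AQP1) were above 0 in every rat. Their sum without TTR ranged from 6757 rescaled TPM (control rat 1) to 9472 among the controls and from 8878 to 9645 among the HFD rats. TTR alone was 530361 in control rat 1, 316761 to 326365 in the other controls and 287895 to 404602 on the HFD. With TTR, the sum was therefore highest in control rat 1 (537118), where the sum without it was lowest.

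CISD1 was the most abundant of the 3 genes, with a mean of 257 rescaled TPM over 10 rats, which placed it at 388 from the top of the 12198 genes tested. GLRX5 followed at 74.3 (place 1270) and BOLA3 at 50.4 (place 1845). The order CISD1, GLRX5, BOLA3 held in 10 of 10 rats, and the lowest GLRX5 value of any rat, 65.6, still lay above the highest BOLA3 value, 65.1. All 3 genes varied little between rats of a diet, with residual SDs of 0.105, 0.0965 and 0.119 on the log2 scale for CISD1, GLRX5 and BOLA3, at the percentiles 11.2, 8.30 and 16.4 of all genes tested. The study's list came from a diet test on these rats, which favours genes with a small spread within a diet. The percentiles were also not taken among genes of like abundance, so nothing is read from them.

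For GLRX5, control rats 1 to 5 had 94.8, 81.4, 73.7, 80.7 and 78.3 rescaled TPM, and HFD rats 1 to 5 had 65.6, 67.3, 68.7, 66.4 and 66.6. The lowest control rat lay 5.02 above the highest HFD rat, and the HFD rats lay close together, with a coefficient of variation of 1.75%. This closeness was not seen in TPM as deposited, where the coefficient was 7.23% in the HFD rats and 6.34% in the controls. The mean was 81.8 ± 7.87 (SD, n = 5) in the controls and 66.9 ± 1.17 (n = 5) in the HFD rats, 18.2% lower, and the log2 fold change was -0.28 (SE 0.069). Without control rat 1 the control mean was 78.5 ± 3.46 (n = 4) and the log2 fold change -0.23 (SE 0.043).

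For BOLA3, control rats 1 to 5 had 65.1, 53.1, 52.7, 51.6 and 51.6 rescaled TPM, and HFD rats 1 to 5 had 42.9, 45.4, 45.7, 50.8 and 44.8. Control rat 1 lay above the other controls, which spanned less than 2 TPM, and HFD rat 4 lay above the other HFD rats and 0.739 below the lowest control. The mean was 54.8 ± 5.77 (SD, n = 5) in the controls and 45.9 ± 2.96 (n = 5) in the HFD rats, 16.2% lower, and the log2 fold change was -0.25 (SE 0.080). Without control rat 1 the control mean was 52.2 ± 0.767 (n = 4) and the log2 fold change -0.19 (SE 0.053).

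For CISD1, control rats 1 to 5 had 320.1, 278, 271, 269.7 and 246 rescaled TPM, and HFD rats 1 to 5 had 239, 252, 238, 231 and 226. The groups overlapped through 1 pair of rats, since control rat 5 lay below HFD rat 2. The mean was 277 ± 26.9 (SD, n = 5) in the controls and 237 ± 9.80 (n = 5) in the HFD rats, 14.4% lower, and the log2 fold change was -0.22 (SE 0.073). Without control rat 1 the control mean was 266 ± 13.9 (n = 4) and the log2 fold change -0.17 (SE 0.051). With bulk tissue, fewer cells of a type and less RNA per cell cannot be told apart, and this holds for each difference given here.

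**Figure D1:**
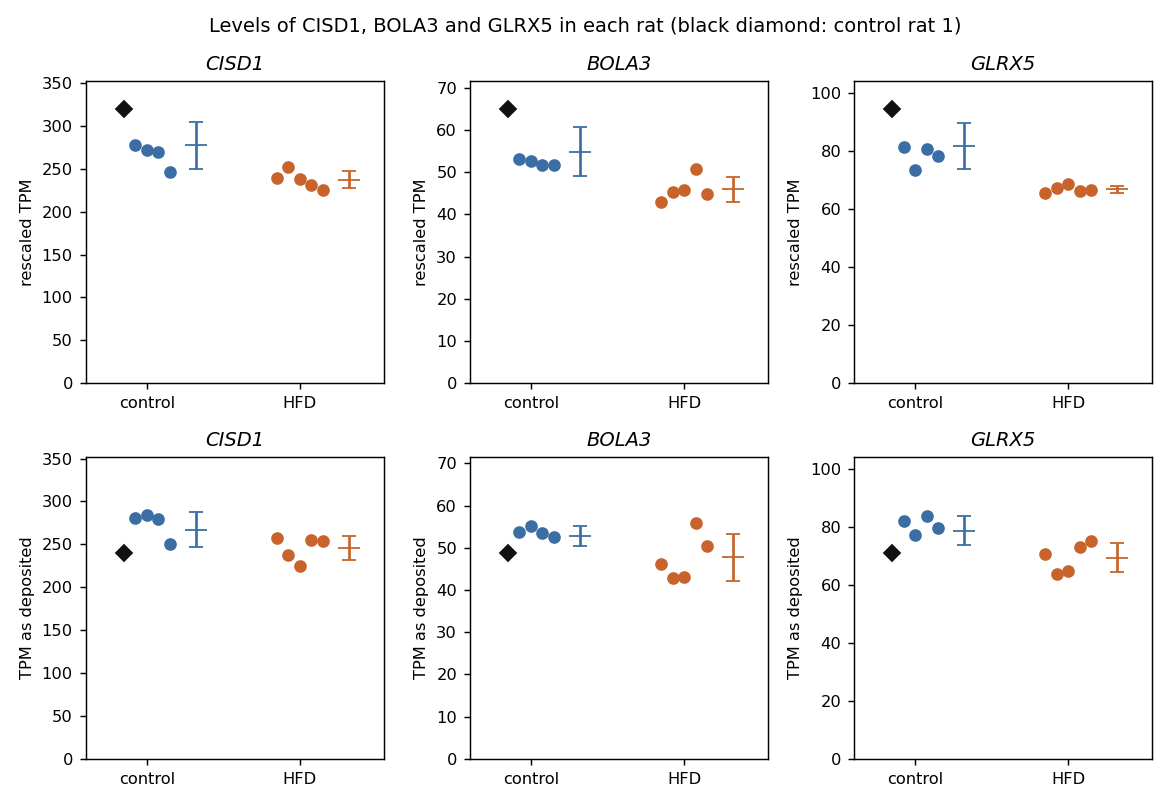
Level of CISD1, BOLA3 and GLRX5 in each rat (vertical axes, TPM) on the control diet and the HFD, as rescaled TPM and as TPM as deposited; points are rats, the black diamond is control rat 1, and the mark beside them is the mean ± SD of 5 rats. Control rat 1 is the highest control for each gene in rescaled TPM and the lowest control for each in TPM as deposited.

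The place of control rat 1 turned with the scaling. In rescaled TPM it lay at 1.18, 1.25 and 1.19 times the median of the other controls for CISD1, BOLA3 and GLRX5, and in TPM as deposited at 0.855, 0.910 and 0.877 times. In TPM as deposited, GLRX5 was 71.0, 82.2, 77.2, 83.7 and 79.7 in control rats 1 to 5 and 70.5, 63.7, 64.9, 73.1 and 75.1 in HFD rats 1 to 5, and control rat 1 lay inside the range of the HFD. BOLA3 was 48.8, 53.7, 55.1, 53.5 and 52.6 on the control diet and 46.1, 42.9, 43.1, 56.0 and 50.5 on the HFD, where HFD rat 4 was above every control. CISD1 was 239.9, 281, 284, 279.8 and 251 on the control diet and 257, 238, 225, 255 and 255 on the HFD.

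In TPM as deposited the 3 genes were still lower in mean on the HFD, by 7.98% for CISD1, 9.47% for BOLA3 and 11.8% for GLRX5, with log2 fold changes of -0.12 (SE 0.074), -0.15 (SE 0.091) and -0.18 (SE 0.080), but the diets overlapped for all 3. Leaving out control rat 1 gave -0.16 (SE 0.062), -0.18 (SE 0.083) and -0.22 (SE 0.067), and only GLRX5 had every control rat, from 77.2 up, above every HFD rat, up to 75.1. GLRX5 was thus the only one of the 3 whose diets stayed apart without control rat 1 on both scales and in rescaled TPM with it. With each of the 10 rats left out in turn, the log2 fold change ran from -0.26 to -0.17 for CISD1, from -0.29 to -0.19 for BOLA3 and from -0.32 to -0.23 for GLRX5, and the value nearest 0 was each time the one without control rat 1.

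The same pattern was counted over all genes. In rescaled TPM, every HFD rat lay below every control rat in 2 of the 3 genes, and the same held for 2.01% of the 12198 genes tested (245 genes). The share was 2.72% without control rat 1, 0.335% in TPM as deposited and 1.08% in TPM as deposited without control rat 1. A lower mean on the HFD was found for 47.1% of all genes in rescaled TPM, 49.4% without control rat 1, 27% in TPM as deposited and 45.7% in TPM as deposited without control rat 1. Since the 3 genes were selected on this contrast, nothing is read from their own counts. All 3 passed the minimum mean of 1 rescaled TPM set for the limma fit over all genes, as they would have in either diet alone. Benjamini-Hochberg adjustment of that fit left 0 genes (0%) with an adjusted p under 0.05, with or without control rat 1 and in rescaled or deposited TPM, while 1051 genes had an unadjusted p under 0.05 in rescaled TPM. Other forms of the limma fit gave between 0 and 3 genes with an adjusted p under 0.05.

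The ratios between the 3 genes do not depend on how a rat is scaled, and their ranges overlapped between the diets. CISD1 over GLRX5 was 3.14 to 3.68 on the control diet and 3.39 to 3.74 on the HFD, CISD1 over BOLA3 4.77 to 5.24 and 4.55 to 5.57, and GLRX5 over BOLA3 1.40 to 1.56 and 1.31 to 1.53. The HFD minus control differences of the log2 ratios were 0.06, 0.03 and -0.03, each smaller than the larger of the SDs within a diet (0.0811, 0.120 and 0.0913). HFD rat 4 had the lowest ratio of GLRX5 to BOLA3, 1.31, while the other HFD rats lay between 1.48 and 1.53. In log2 rescaled TPM that rat lay 0.15 above the HFD mean for BOLA3, and -0.04 and -0.01 from it for CISD1 and GLRX5. Control rat 5 lay -0.17 from the control mean for CISD1 and control rat 3 -0.14 for GLRX5.

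Within a diet, the likeness of the 3 genes across rats rested on control rat 1. Over 10 rats the deviations from the diet means correlated with Pearson's r of 0.651 (Spearman's rho 0.261) for CISD1 and BOLA3, 0.759 (0.564) for CISD1 and GLRX5 and 0.754 (0.758) for BOLA3 and GLRX5. Over the 9 rats without it, r was -0.0604, 0.160 and 0.0208 (rho 0.25, 0.267 and 0.117). These correlations are descriptions of rats that share their scaling factors.

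The other glutaredoxins give a scale for GLRX5 within the same rat. GLRX, a cytosolic dithiol glutaredoxin, had 55.0 ± 5.78 rescaled TPM (SD, n = 5) in the controls and 53.4 ± 4.42 in the HFD rats, with a limma adjusted p of 0.840. GLRX2, a dithiol glutaredoxin found in mitochondria, had 56.8 ± 6.14 and 54.4 ± 3.62 (limma adjusted p = 0.768), and GLRX3, the monothiol glutaredoxin of the cytosol, had 204 ± 6.01 and 196 ± 13.5 (limma adjusted p = 0.676). Their log2 fold changes were -0.04, -0.06 and -0.06 in rescaled TPM and 0.06, 0.04 and 0.04 in TPM as deposited, so that their direction turned with the scaling. The HFD minus control difference of the log2 ratio of GLRX5 to GLRX, GLRX2 and GLRX3 was -0.24, -0.23 and -0.23, and without control rat 1 it was -0.16, -0.11 and -0.17. The ratio of GLRX5 to GLRX was 1.25 to 1.87 on the control diet and 1.13 to 1.37 on the HFD, that to GLRX2 1.17 to 1.99 and 1.16 to 1.36, and that to GLRX3 0.364 to 0.469 and 0.311 to 0.364. All 3 ratios overlapped between the diets, and since GLRX5 was selected on this contrast they are a description only.

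The BolA paralogs depended on control rat 1. BOLA1, a mitochondrial BolA protein, had 116 rescaled TPM in control rat 1, 43.1 to 58.4 in the other controls and a mean of 45.8 ± 4.63 (SD, n = 5) on the HFD, with a log2 fold change of -0.33 (SE 0.240, limma adjusted p = 0.600) that was -0.08 without that rat. BOLA2, the BolA partner of GLRX3 in the cytosol, had 140.0 in control rat 1, 62.0 to 77.8 in the other controls and 65.5 ± 5.69 on the HFD, with a log2 fold change of -0.31 (SE 0.191, limma adjusted p = 0.588) that was -0.11 without it. The HFD minus control difference of the log2 ratio of BOLA3 to BOLA1 and BOLA2 was 0.08 and 0.05 with all rats and -0.11 and -0.08 without control rat 1, so that its sign turned with that rat. The NEET paralogs CISD2 and CISD3 were not analysed here.

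**Figure D2:**
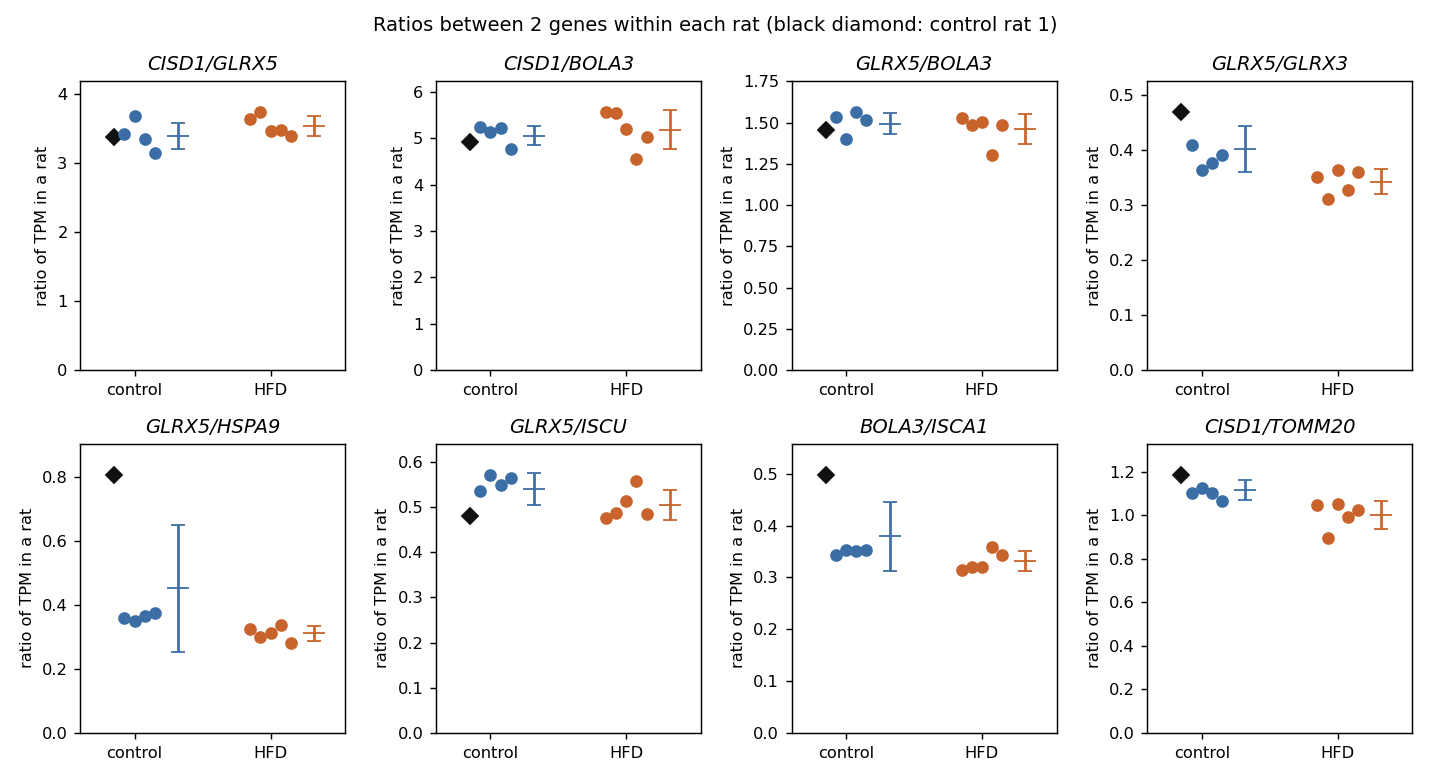
Ratio of the TPM of 2 genes within each rat (vertical axes, linear, from 0) by diet, for the pairs among CISD1, BOLA3 and GLRX5 and for 5 ratios to family or partner genes; points are rats, the black diamond is control rat 1, and the mark beside them is the mean ± SD of 5 rats. The diets overlap for the pairs among the 3 genes, and they lie apart for GLRX5 over HSPA9 and for CISD1 over TOMM20.

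The ratios to other partners, chosen after the values had been opened, set GLRX5 beside the proteins it works with. GLRX5 over ISCU, the scaffold, was 0.481 to 0.572 on the control diet and 0.476 to 0.559 on the HFD. GLRX5 over HSPA9, the chaperone, was 0.806 in control rat 1, 0.350 to 0.376 in the other controls and 0.279 to 0.338 on the HFD. CISD1 over TOMM20, an import receptor in the same membrane, was 1.06 to 1.19 on the control diet and 0.897 to 1.05 on the HFD, a difference of -0.16 in the log2 ratio (-0.13 without control rat 1). Of the 14 ratios computed, these last 2 did not overlap between the diets, with or without control rat 1. Over all partner genes, every HFD rat lay below every control rat in 12.3% of the ratios of CISD1 to each of 6254 other genes, 13.9% of those of BOLA3 and 27.8% of those of GLRX5 (1736 genes).

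The other genes of the iron-sulfur pathway were mostly a little lower on the HFD, and with all 10 rats their shares were near those of abundant genes. Of 74 pathway genes besides the 3, 25 were measured under a symbol, and 20 were lower and 5 higher in mean rescaled TPM, with a median log2 fold change of -0.11 against 0.01 over all genes. An unadjusted limma p under 0.05 was reached by 3, all lower (SDHB, NDUFS8 and NDUFV2), beside 4.84% of all genes in that direction, and 0 reached an adjusted p under 0.05. Symbols were known mostly for abundant genes, and over the 1955 genes with a symbol outside the study's list 70.2% were lower in mean, 12.2% were lower with an unadjusted p under 0.05, and the median log2 fold change was -0.08. The shares of the pathway, 20 and 3 of 25, were near these.

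When control rat 1 was left out, 25 of the 25 pathway genes were lower in mean and 6 (SDHB, NDUFS7, NDUFS8, FDX1, GRPEL1 and ISCA1) had an unadjusted p under 0.05, beside 6.25% of all genes, and the median was -0.09. In TPM as deposited, 13 were lower and 12 higher, 2 had an unadjusted p under 0.05 (NDUFS7 and NDUFS8, both lower), beside 1.26% of all genes, and the median was -0.0047 while that of all genes was 0.12. In TPM as deposited without control rat 1, 24 were lower, 5 of them with an unadjusted p under 0.05, beside 3.01% of all genes. Among the 1955 genes with a symbol, 73.8%, 43.9% and 68.9% were lower in mean in these 3 fits, and 15.9%, 3.68% and 8.9% were lower with an unadjusted p under 0.05. The pathway's share of lower genes was thus above that of the genes with a symbol in each fit, and by more in both fits without control rat 1. This difference was not tested. SDHB stands in the study's list and is not independent of it, while the genes with a symbol leave that list out. Over the 24 pathway genes without it, 19 were lower in rescaled TPM, 2 with an unadjusted p under 0.05, and the median was -0.10.

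By role, these 3 genes with an unadjusted p under 0.05 in rescaled TPM were clients that receive a cluster in mitochondria. Of 8 such clients measured, 6 were lower in mean, beside 70.2% of the genes with a symbol outside the study's list. Every HFD rat lay below every control rat for SDHB and NDUFS8, as for 120 of those 1955 genes. SDHB, counted both times, stands in the study's list, so its separation came with the selection and only NDUFS8 can be set beside that share. SDHB, the iron-sulfur subunit of succinate dehydrogenase, had 188 ± 4.81 rescaled TPM in the controls and 159 ± 10.5 in the HFD rats, a log2 fold change of -0.24 (SE 0.060, limma adjusted p = 0.540). NDUFS8, a cluster-bearing subunit of complex I, had 269 ± 30.9 and 225 ± 10.4, a log2 fold change of -0.25 (SE 0.079, limma adjusted p = 0.540). NDUFV2, another complex I subunit, had 305 ± 15.1 and 271 ± 27.7, a log2 fold change of -0.17 (SE 0.077, limma adjusted p = 0.571) whose unadjusted p was no longer under 0.05 without control rat 1. NDUFS7, also of complex I, had 110.4 ± 32.0 and 85.5 ± 4.66, with a log2 fold change of -0.33 that was -0.17 without control rat 1.

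The genes that act before and beside GLRX5 and BOLA3 were mostly lower or near level in mean. Several of the values moved with control rat 1, in either direction. In the list of de novo assembly the log2 fold change in rescaled TPM was 0.01 for NFS1, the cysteine desulfurase that supplies the sulfur. The log2 fold changes were -0.19 for ISCU and -0.12 for FDX1, a ferredoxin counted in that list. In the chaperone step they were 0.17 for HSPA9 and -0.14 for its nucleotide exchange factor GRPEL1, and in the late step -0.07 for ISCA1 and -0.14 for ISCA2. None of these passed an unadjusted p of 0.05 in the limma fit with 10 rats. Without control rat 1, HSPA9 moved to -0.01 and NFS1 to -0.06. The lower values of ISCU and ISCA2 shrank to -0.09 and -0.06, since that rat was the highest control for both. Those of FDX1, GRPEL1 and ISCA1 grew to -0.18, -0.15 and -0.11. Of the proteins that carry or use lipoate, the cofactor whose synthesis BOLA3 serves, GCSH had a log2 fold change of -0.11, DLST of -0.02 and DLD of 0.14 (-0.03 without control rat 1, which had 40.2 rescaled TPM against 72.3 to 74.0 in the other controls), and 0 of the 3 had an unadjusted p under 0.05. In the cytosolic branch CIAO2A had -0.10, and among clients outside mitochondria only ELP3, with -0.11, was measured under a symbol. The exporters and the mitochondrial iron carriers of the lists were not analysed here.

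**Figure D3:**
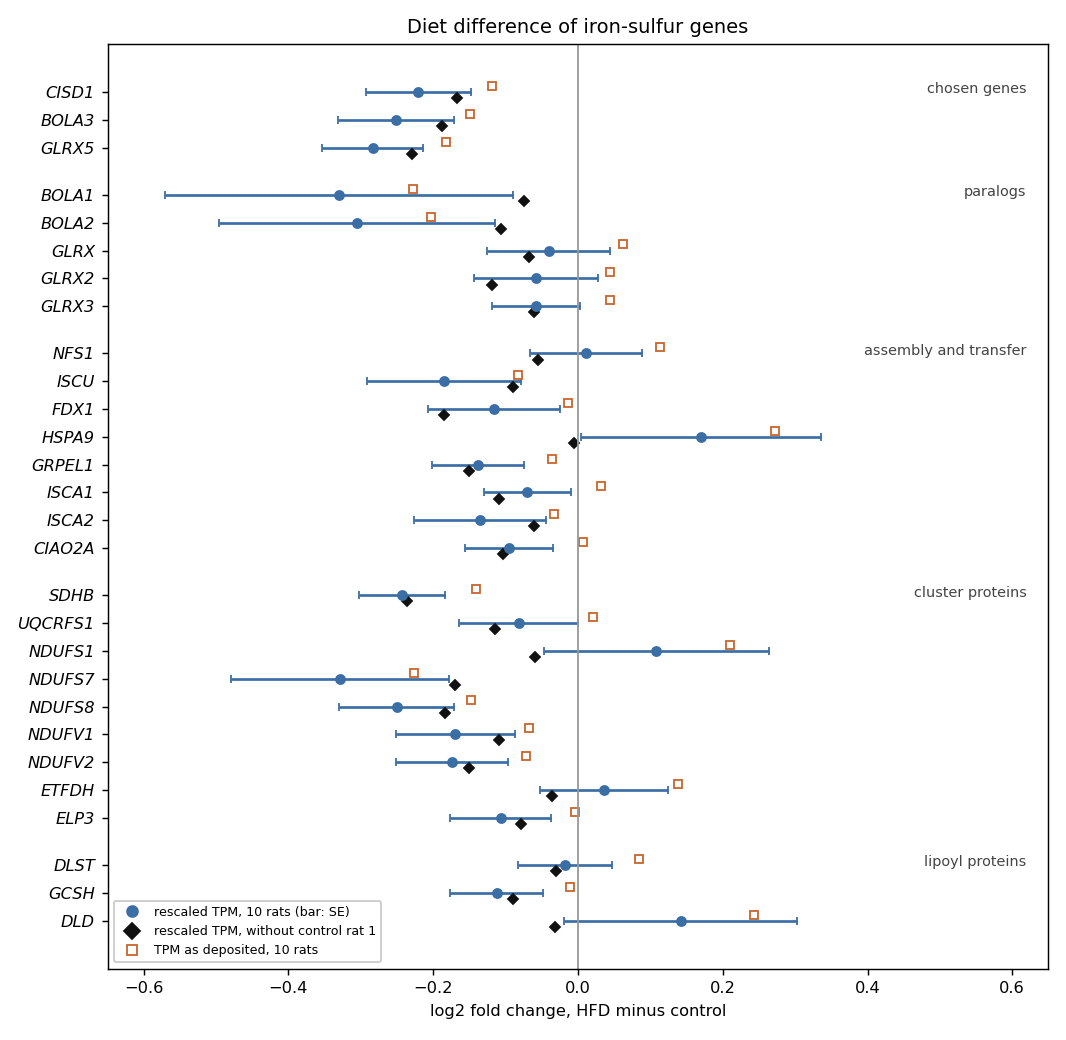
Log2 fold change, HFD minus control, of CISD1, BOLA3 and GLRX5 ("chosen genes") and of 25 other iron-sulfur pathway genes by role; blue circles with bars are rescaled TPM of 10 rats ± SE of the limma fit, black diamonds the same without control rat 1, and open orange squares TPM as deposited. Most circles lie left of 0, and the squares lie right of the circles for each gene.

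**Figure D4:**
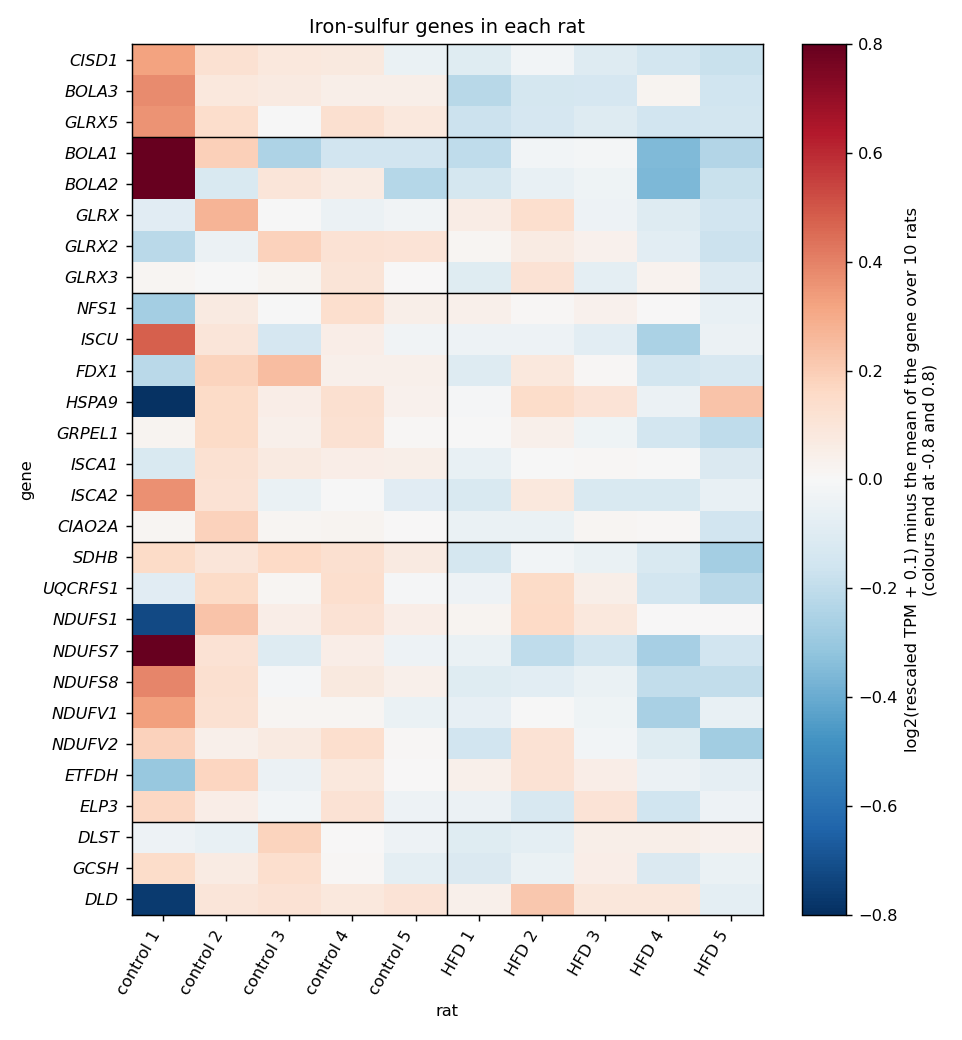
Rescaled TPM of CISD1, BOLA3, GLRX5 and 25 pathway genes (28 genes) in each rat as the log2 deviation from the mean of the gene over all 10 rats; the colours end at ±0.8. Control rat 1 deviates by more than 0.2 in 17 of 28 genes, 10 above and 7 below, and the other 9 rats together in 20 of 252 cells.

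Other genes of the membrane that holds CISD1 were lower in mean too. Of 16 other genes of the outer mitochondrial membrane, 9 were measured under a symbol, and all 9 were lower in mean rescaled TPM, beside 70.2% of the genes with a symbol, with a median log2 fold change of -0.12. The import factor SAMM50 had 68.9 ± 6.13 in the controls and 60.7 ± 1.51 in the HFD rats (log2 fold change -0.18, limma adjusted p = 0.540). The anion channel VDAC1 had 148 ± 18.7 and 128 ± 5.31 (log2 fold change -0.20, limma adjusted p = 0.569). These 2 were the genes of the list with an unadjusted p under 0.05, beside 4.84% of all genes and 12.2% of those with a symbol. In TPM as deposited 5 of the 9 were lower, none with an unadjusted p under 0.05, and the median was -0.02. In that fit 27% of all genes and 43.9% of those with a symbol were lower, and the median of all genes was 0.12. Without control rat 1, all 9 were lower in rescaled TPM, beside 73.8% of the genes with a symbol. An unadjusted limma p under 0.05 was then reached by 3, beside 15.9%. In TPM as deposited without that rat, all 9 were lower, beside 68.9%, none with an unadjusted p under 0.05. CISD1 over VDAC1 differed by -0.02 in log2 ratio between the diets, and by 0.04 without control rat 1.

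The genes whose deviations from the diet means were most like those of each gene changed with control rat 1. Over 10 rats, the 3 genes with a symbol and the highest Pearson's r among 6271 genes ranked were RPS2 (0.977), NME1 (0.975) and EMC4 (0.969) for CISD1. They were ACYP1 (0.931), RTL8A (0.923) and RSPH1 (0.915) for BOLA3, and BRI3 (0.965), REEP5 (0.960) and SLC25A20 (0.958) for GLRX5. Over the 9 rats without control rat 1, those reported include MRPS18A (0.951) and SLC25A4 (0.944) for CISD1. For BOLA3 the 3 highest were then CRK (0.872), ATP6V1A (0.871) and THYN1 (0.868), and for GLRX5 H3F3B (0.888), LOC100912564 (0.877) and JAM3 (0.860). No gene was named for the same one of the 3 both times, and the r are descriptions of the top of a long ranking over few rats.

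Markers of several cell types stood apart in control rat 1, and their part in these differences was not tested. Of the epithelial markers, KL (log2 fold change 0.27, limma adjusted p = 0.565) and HTR2C (0.21, limma adjusted p = 0.540) were higher in mean with an unadjusted p under 0.05, beside 3.78% of all genes in that direction, and without control rat 1 their values were 0.16 and 0.19. Of the 10 markers, 7 were higher in mean and 3 lower in rescaled TPM, 6 and 4 without control rat 1, and 9 and 1 in TPM as deposited. In these 3 fits, 47.1%, 49.4% and 27% of all genes were lower in mean. Among the 1955 genes with a symbol outside the study's list, 70.2%, 73.8% and 43.9% were lower. Without control rat 1, 2 markers were higher and 1 lower with an unadjusted limma p under 0.05. Over all 12209 genes of that fit, 676 were higher and 763 lower. The lower marker was AQP1, with a log2 fold change of -0.18 (-0.05 with 10 rats). The summed hemoglobin transcripts HBB and HBA-A2 were 1523 to 2905 rescaled TPM on the control diet and 1257 to 2753 on the HFD, with the highest value in control rat 1. That rat did not stand apart for HBB alone, with 1220 against 818 to 1609 in the other controls. RGS5, a marker of mural cells, was 42.6 in control rat 1, up to 110.4 in the other controls and 101 to 129 on the HFD. PLVAP, of fenestrated endothelium, was 53.8 to 97.2 on the control diet, highest in control rat 1, and 51.0 to 67.2 on the HFD, and DCN, of stroma, was 116 to 231 and 160.5 to 227. Markers of macrophages, neurons and glia were not analysed here.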

How the data were processed

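Choroid plexus RNA of each rat (per the methods, lateral plexus and that of the fourth ventricle) was sequenced. Per the labels, the authors aligned the reads with STAR 2.7.2a and quantified them with RSEM 1.3.3 on Rnor_6.0, while the study's methods name another STAR version. The authors deposited, for each rat, TPM and FPKM per gene with 2 decimals, and the deposited FPKM are a constant multiple of TPM within a rat and gave only its mean effective length (789 in control rat 1, 874 to 967.5 in the others). RSEM shares reads among near-identical copies. The strand setting was not given in the sources used here, and 1 RefSeq lncRNA (LOC100912332) overlaps GLRX5. The study's count test was replaced by limma 3.58.1 (R 4.3.3) on log2(rescaled TPM + 0.1), genes with a mean of at least 1, trend, diet as the only term, and fold changes are given on this log2 scale. For the scaling factor of a rat, its ratios to the 10-rat mean were taken over 12037 genes and their median used. Python 3.11.15, numpy 2.4.6, pandas 2.3.3 and matplotlib 3.10.9 served the other steps. The fit was first tested on data with known differences.

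The members, lists and tests were chosen with earlier results of these data known. Symbols of 2015 identifiers came from the study's tables, 1 of them shortened to its most abundant genes. Genes were named by rule: CISD1, BOLA3 and GLRX5, their paralogs, pathway genes with an unadjusted p under 0.05, and the 3 most alike per gene. A few genes that the rule names are left unreported, and the pathway counts leave out 1 of them. Further pathway and marker genes named to describe a step were chosen after their values were seen. Alternatives were the scaling, pseudocount, filter, variance model, replicate block, length covariate and leaving out each rat. Samples with the same replicate number did not deviate together (correlations -0.0376 to 0.116), so that the numbers were not treated as pairs. The depth per library was not given in the files, and the number of rats sets the precision.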

Additional observations from a re-analysis of the deposited data

Results flagged for a closer look

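In 9 of 56 groups of 5 rats tested, the highest or lowest rat stood apart by more than 0.71 of the group's range, and 5 of the 9 were control rat 1. Chance would give about 2.8 if the groups were independent. They share rats and genes, so the 9 cannot be judged against that figure. In that rat, BOLA3 was at 65.1 rescaled TPM (51.6 to 53.1 in the other controls), BOLA1 at 116 (43.1 to 58.4) and BOLA2 at 140.0 (62.0 to 77.8). Its ratio of GLRX5 to HSPA9 was 0.806 (0.350 to 0.376) and that of BOLA3 to ISCA1 0.498 (0.343 to 0.353). In HFD rat 4, GLRX5 over BOLA3 was 1.31 (1.48 to 1.53 in the other HFD rats) and BOLA3 over BOLA2 was 0.898 (0.643 to 0.698). GLRX was at 65.2 rescaled TPM in control rat 2 (50.8 to 54.0 in the other controls), and GLRX3 at 214 in control rat 4 (199 to 203).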

How the results depend on the processing

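The log2 fold changes of CISD1, BOLA3 and GLRX5 stayed below 0 in all alternatives run. The 3 genes were selected on this contrast of the same rats, so nothing is read from the kept sign. With TPM as deposited, GLRX5 moved from -0.28 to -0.18, the genes with an unadjusted p under 0.05 from 1051 to 624 (470 higher and 154 lower, against 461 and 590), the pathway genes with one from 3 to 2, and the pathway's median log2 fold change from -0.11 to -0.0047. Those counts were 1877 and 7 with array weights, and the pathway count was 2 with upper-quartile rescaling. A minimum mean of 10 gave 622 genes, fewer being tested. The number of genes with an adjusted p under 0.05 went from 0 to 1 without the filter, 3 with array weights and 2 with the length covariate. Leaving out 1 rat at a time gave 793 (without HFD rat 3) to 1439 genes (without control rat 1), 0 genes with an adjusted p under 0.05, 2 to 6 pathway genes and medians from -0.122 to -0.0855. The pathway count was 6 without control rat 1 or without control rat 5, and 5 in TPM as deposited without control rat 1. The fit with the replicate number as a block gave 1137 genes with an unadjusted p under 0.05 and 0 with an adjusted one, and the numbers do not pair the rats. The ratio of BOLA3 to BOLA1 ranged from -0.11 to 0.17 in log2 difference, and that to BOLA2 from -0.08 to 0.13, both lowest without control rat 1. The cause of these shifts was not tested. TPM as deposited without control rat 1 was added after seeing the data. Unknown depth limits any statement on counting error.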
